A study of Mus musculus with 27 samples.

Results

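The effect of the P301S tau transgene in mice with intact Cgas was examined in single-nucleus RNA-seq libraries of the hippocampus. The comparison was between the libraries whose genotype label reads P301S tau:+ cGAS:+/+ (6 mice, called P301S Cgas+/+) and those labelled P301S tau:- cGAS:+/+ (5 mice, called Cgas+/+), which make up 11 of the 27 libraries of the series. P301S Cgas+/+ mice carry human tau with a dementia-linked mutation under the mouse Prnp promoter, and neither group lacks a copy of Cgas, whose enzyme detects DNA in the cytosol. P301S Cgas+/+ held 3 males and 3 females and Cgas+/+ held 3 males and 2 females, all adult mice, and nuclei were sorted on a DNA dye from frozen hippocampi. Each library came from 1 mouse. Unless stated otherwise, the gene tests were fitted over 23 libraries. These include 12 of P301S Cgas+/- and P301S Cgas-/- mice, which lack 1 or both copies of Cgas. They entered the estimate of the spread and the filter on low counts, not the difference itself.

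Type I interferons act through the receptor chains Ifnar1 and Ifnar2 and transcription factors such as Stat2 and Irf9, which switch on a large set of antiviral genes. Microglia, the resident macrophages of the brain, lower their homeostatic genes and raise lipid-handling, lysosomal and antigen-presentation genes around tau and amyloid pathology, and this is known as the disease-associated state. Astrocytes respond to injury with intermediate filament, complement and protease inhibitor genes, and oligodendrocytes in the same tissue can switch on complement and antigen-presentation genes.

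The 11 libraries held 46091490 to 79198035 UMIs (individual captured RNA molecules) each, and 6264 to 12572 nuclei per library were kept, 89433 in all. The median UMI count per kept nucleus was 1754.5 to 4176 in P301S Cgas+/+ and 3535 to 7540 in Cgas+/+, while within microglia-like and astrocyte-like nuclei it was higher in most P301S Cgas+/+ libraries. Nuclei fell into 23 classes by fixed markers, and each class is written as a cell type with "-like". Clusters left unnamed held 5.18% to 50.3% of the kept nuclei in P301S Cgas+/+ and 2.41% to 5.18% in Cgas+/+. The 50.3% was in P301S Cgas+/+ replicate 3, the library with the lowest median UMI count per kept nucleus, and most of it (40.7% of its kept nuclei) was 1 shallow cluster that matched excitatory neurons best but had too few markers to be named, led by Ttr, mitochondrial genes, Actb and Apoe. Sex-linked genes matched the labelled sex in 11 of 11 libraries, and pairs of libraries shared 10 to 47 cell barcodes. Replicates 1 and 2 of both groups carry software version 3.0.2 in their file headers and the other 7 libraries carry 3.1.0, and the first 4 are all males. UMIs were summed per library and class, and a level is given as CPM, a gene's UMIs scaled to a common total of UMIs of its class in each library. A difference is the log2 fold change of edgeR's quasi-likelihood test, P301S Cgas+/+ minus Cgas+/+, and a gene counts as changed where its adjusted p (Benjamini-Hochberg, all genes tested in the class) was under 0.05. Statements below that libraries of a group lay above or below the other group describe levels only. The share of all tested genes that separate the groups in this way is not given.

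Microglia-like nuclei showed higher interferon-stimulated, disease-associated and MHC class II gene levels and lower homeostatic gene levels in 4 of the 6 P301S Cgas+/+ libraries, but no single gene passed edgeR's threshold. Of 8947 genes tested, 0 had an adjusted p under 0.05 (0.0%), the smallest adjusted p was 0.0601, and 1455 had an unadjusted p under 0.05, 936 higher and 519 lower. DESeq2 on the same counts called 246 genes higher and 34 lower. The P301S Cgas+/+ mice did not behave as 1 group: replicate 2, a male, stayed at or near the Cgas+/+ levels for most genes below, and replicate 4, a female, lay between. Without replicate 2, edgeR called 303 genes higher and 112 lower, and without replicate 4 it called 8 higher and 1 lower. The class held 3259 nuclei of P301S Cgas+/+ and 1489 of Cgas+/+, and its 12 microglial markers summed to 13900 to 19200 CPM against 17500 to 20100 CPM. A second microglial cluster held 28.8% of the P301S Cgas+/+ and 0.336% of the Cgas+/+ microglia-like nuclei, and both clusters were summed together. The median UMI count per microglia-like nucleus was 1737, 1440, 2854, 1723, 1561 and 1628 in P301S Cgas+/+ and 1267, 1448, 1509.5, 1466 and 1224 in Cgas+/+. All P301S Cgas+/+ libraries but replicate 2 were thus above Cgas+/+ in depth within the class, replicate 3 by the most. The part of this depth in the gene differences was not tested. The depth covariate given with the lists was the median UMI count over all kept nuclei of a library, which was lowest in replicate 3.

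Of 60 interferon-stimulated effectors, the antiviral and signalling genes that interferon switches on, 57 had a UMI in microglia-like nuclei and 54 had a higher mean level in P301S Cgas+/+. Their summed level was 6060, 1560, 4190, 2100, 5310 and 3450 CPM in P301S Cgas+/+ replicates 1 to 6, and 1420, 1950, 1270, 1490 and 1630 CPM in Cgas+/+ replicates 1 to 5. Thus 5 of 6 P301S Cgas+/+ libraries lay above every Cgas+/+ library, and replicate 2 lay among them. Of the 60 effectors, 44 passed the filter on low counts, which ran over the 23 libraries of the fit. Members near 0 in Cgas+/+ could pass through their level in P301S mice, and over the 11 libraries alone 28 passed. Of the 44, 36 were higher and 0 lower at an unadjusted p under 0.05, where 10.5% of all genes tested were higher and 5.8% lower. The median log2 difference of the 44 was 1.42, against 0.0 over all genes. It was 1.39 among the libraries of software version 3.1.0 and 1.22 among those of 3.0.2, and ran from 0.96 to 1.63 over the alternatives.

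Trim30d, a member of the Trim30 family, had the smallest p of the effectors tested. Its level was 93.4 to 252 CPM (median 175) in P301S Cgas+/+ and 66.3, 103, 65.2, 55.9 and 72.6 CPM in Cgas+/+, a log2 difference of 1.27 ± 0.251 (edgeR adjusted p = 0.0632, DESeq2 adjusted p = 0.000982). Trim30a, which restrains NF-κB signalling, was at 207 to 541 CPM (median 379) against 120, 208, 147, 141 and 151 CPM, and replicate 2 was the 1 of 6 within the Cgas+/+ range.

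Mx1, a GTPase that blocks viral ribonucleoproteins, was at 89.4, 0, 45.5, 12.6, 68.5 and 58.9 CPM in P301S Cgas+/+ replicates 1 to 6 and at 0, 7.35, 0, 2.94 and 2.02 CPM in Cgas+/+. Lgals3bp, a secreted glycoprotein that binds galectins, was at 43.6, 6.83, 53.5, 24, 43.6 and 29.5 CPM against 0, 12.2, 4.83, 2.94 and 6.05 CPM. Both were above the Cgas+/+ range in 5 of 6 libraries. The log2 differences were 4.37 ± 0.972 for Mx1 and 2.68 ± 0.575 for Lgals3bp (edgeR adjusted p = 0.0864 each). They rested on 5 and 11 UMIs in all of Cgas+/+. Cd274, which encodes the checkpoint ligand PD-L1, was at 12 to 89.9 CPM (median 44.3) against 4.91, 9.8, 7.24, 11.8 and 14.1 CPM, with a log2 difference of 2.40 ± 0.57. Slfn2, a schlafen family gene of immune cells, had a log2 difference of 3.24, Rnf213, a large ubiquitin ligase, of 1.5, and Parp14, an ADP-ribosyltransferase, of 1.43 (edgeR adjusted p = 0.0864 to 0.0886).

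The upstream promoters of Trim30d and Cd274 are shown because each holds a match to the core of the interferon-stimulated response element, GAAANNGAA or TTCNNTTTC on the other strand. They are from the RefSeq promoter table for GRCm38.p6 and end at the base before the gene's start, and capitals mark the match. The Trim30d promoter is chr7:104507850-104508099 on the minus strand, with the match beginning 40 bases before the start, and that of Cd274 is chr19:29367188-29367437 on the plus strand, with the match beginning 76 bases before the start.
Trim30d: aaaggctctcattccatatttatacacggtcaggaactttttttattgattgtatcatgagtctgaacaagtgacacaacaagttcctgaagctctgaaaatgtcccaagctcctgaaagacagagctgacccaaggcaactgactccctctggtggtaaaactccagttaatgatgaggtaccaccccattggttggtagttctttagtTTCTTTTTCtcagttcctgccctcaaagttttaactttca
Cd274: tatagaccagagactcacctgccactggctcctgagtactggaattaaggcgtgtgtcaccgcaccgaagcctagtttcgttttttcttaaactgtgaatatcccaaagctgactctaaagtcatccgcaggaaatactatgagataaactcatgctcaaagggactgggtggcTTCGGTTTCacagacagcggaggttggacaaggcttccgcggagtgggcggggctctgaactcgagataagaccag

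The motif was searched on both strands in the 250 bases upstream, and it was present in 7.13% of 32851 promoters and in 8.18% of 27025 genes of the table. Of the 60 effectors, 47 were in the table and 22 of them (46.8%) had a match, while the promoters of Lgals3bp and Slfn2 had none. A match is a description of the letters and was not tested as a binding site.

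Sensors of nucleic acids with their signalling partners, and the interferon receptors, were 2 further lists in microglia-like nuclei. Of 20 sensing genes, 16 were tested, with log2 differences from -0.78 to 4.21, 15 of the 16 above 0, and a median of 0.52. The median was 0.90 without Cgas+/+ replicate 4, 0.79 without a filter on low counts and 0.24 with only the 11 libraries in the fit. At an unadjusted p under 0.05, 9 were higher and 1 lower, and DESeq2 called 5 higher. The 4.21 (± 1.37, edgeR adjusted p = 0.143, DESeq2 adjusted p = 0.0204) was that of Ikbke, a kinase of the interferon-inducing pathway, chosen for this account after its values were seen. It was at 40.5, 0, 62.6, 7.57, 37.4 and 6.41 CPM against 0, 0, 0, 2.94 and 4.03 CPM and rested on 171 UMIs against 3. Adar, an RNA editing enzyme, was at 154, 68.3, 116, 85.8, 133 and 133 CPM against 68.7, 44.1, 74.8, 64.7 and 62.5 CPM, a log2 difference of 0.91 ± 0.221 (edgeR adjusted p = 0.0864). Ddx58, the gene of the RNA sensor RIG-I, had a log2 difference of 1.2 ± 0.315, and 5 of 6 libraries lay above Cgas+/+ for it as for Adar. Tmem173, the files' symbol for the STING gene, was the 1 lower member, at 14.5 to 40.4 CPM (median 29.9) against 46.6, 58.8, 36.2, 64.7 and 36.3 CPM (log2 difference -0.78 ± 0.275, edgeR adjusted p = 0.156). Mb21d1, the symbol for Cgas, was at 26.6 to 56.9 CPM against 32.4 to 39.2 CPM, with a log2 difference of 0.13 ± 0.22. Of 11 interferon receptor genes 9 were tested, with a median of 0.17 (0.11 without P301S Cgas+/+ replicate 5), and Ifnar1 (0.80) and Ifngr2 (0.63), chains of the type I and type II receptors, were the 2 higher at an unadjusted p under 0.05.

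All 32 genes of the disease-associated microglia list had a higher mean level in P301S Cgas+/+. Their summed level was 8180, 2490, 13100, 3040, 7480 and 4670 CPM in P301S Cgas+/+ and 2110, 2140, 2210, 2240 and 2480 CPM in Cgas+/+. The groups did not overlap, although replicate 2 exceeded the highest Cgas+/+ library by little. Of 29 members tested, 24 were higher and 0 lower at an unadjusted p under 0.05, and the median log2 difference was 2.54 (3.06 within software version 3.1.0, 1.84 within 3.0.2 and 1.68 without P301S Cgas+/+ replicate 3). Over the 11 libraries alone the filter on low counts passed 15 of the 32. With the median UMI count over all kept nuclei of a library as a covariate, the disease-associated median was 1.18, with 7 members at an unadjusted p under 0.05. The interferon effectors kept a median of 1.37, with 33. Depth within microglia-like nuclei was not used as a covariate.

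Axl, a receptor tyrosine kinase for the clearance of dying cells, was at 352, 1.71, 423, 39.1, 214 and 122 CPM against 2.45, 26.9, 9.66, 2.94 and 0 CPM, a log2 difference of 4.66 ± 1.2 (edgeR adjusted p = 0.0886). Itgax, the integrin chain CD11c, was at 112, 3.42, 180, 11.4, 95.1 and 33.3 CPM against 0, 2.45, 4.83, 2.94 and 0 CPM (log2 difference 5.23 ± 1.49). Csf1, a growth factor for microglia, was at 8.54 to 283 CPM (median 134) against 14.7, 14.7, 9.66, 2.94 and 12.1 CPM. In all 3, replicates 1, 3 and 5 were the highest libraries and replicate 2 lay within the Cgas+/+ range. Arhgap24, a GTPase-activating protein, stood above every Cgas+/+ library in 6 of 6, at 292 to 1210 CPM (median 772) against 179, 213, 266, 238 and 290 CPM (log2 difference 1.75 ± 0.404, edgeR adjusted p = 0.0864). Apoe, the lipid carrier, spread from 93.4 to 2970 CPM against 77.2 to 184 CPM, and its log2 difference of 2.62 ± 1.11 had an edgeR adjusted p of 0.251. Cst7, a cysteine protease inhibitor, rested on 94 UMIs against 1, and the tetraspanins Cd63 and Cd9 had log2 differences of 3.02 and 1.73.

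Antigen presentation genes split into a class II group with large and uneven differences and a class I group with smaller ones. The 7 MHC class II genes summed to 918, 18.8, 1690, 71.9, 557 and 144 CPM in P301S Cgas+/+ microglia-like nuclei and to 14.7, 71, 12.1, 55.9 and 42.4 CPM in Cgas+/+. Thus 5 of 6 libraries were above, 1 of them by little. All 7 passed the filter on low counts over the libraries of the fit, while over the 11 libraries alone 2 passed. Of the 7, 6 were higher at an unadjusted p under 0.05, and the median log2 difference was 4.22 (2.89 to 4.71 over the alternatives). Cd74, the invariant chain, was at 523, 5.12, 818, 26.5, 262 and 61.5 CPM against 0, 29.4, 0, 26.5 and 16.1 CPM (log2 difference 4.26 ± 1.37, edgeR adjusted p = 0.142). H2-Aa and H2-Eb1, class II chains, had 3 and 2 UMIs in all of Cgas+/+ and 436 and 399 in P301S Cgas+/+. Ciita, the master activator of class II genes, was at 0 to 114 CPM (median 29) against 0 to 9.8 CPM.

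Border macrophage markers, which mark the other brain macrophages that carry class II molecules, summed to 260 to 1100 CPM (median 513) in P301S Cgas+/+ microglia-like nuclei and 250 to 409 CPM (median 385) in Cgas+/+, with 3 of 9 higher in mean and Lyve1 at 0. T cell markers summed to 44.2 to 80.8 CPM against 24.5 to 85.3 CPM, with Cd3e, Cd3d, Trac, Trbc2 and Cd8a at 0. Oligodendrocyte markers summed to 307 to 729 CPM (median 658) against 270 to 551 CPM (median 358), with 9 of 10 higher in mean, and their part in the differences was not tested. In class I, H2-K1, a heavy chain, was above Cgas+/+ in 6 of 6 libraries, at 177, 56.4, 192, 75.7, 157 and 133 CPM against 9.81, 29.4, 29, 44.1 and 8.07 CPM (log2 difference 2.55 ± 0.651, edgeR adjusted p = 0.0886). The 13 class I genes summed to 333 to 1030 CPM (median 679) against 277 to 383 CPM (median 331), and 6 of 11 tested were higher at an unadjusted p under 0.05.

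Homeostatic genes of microglia were lower in the same libraries. The 20 members summed to 8870, 16100, 11900, 15100, 11300 and 12300 CPM in P301S Cgas+/+ and 14700, 17100, 16500, 18100 and 15400 CPM in Cgas+/+, with 4 of 6 libraries below every Cgas+/+ library. Of the 20, all tested, 12 were lower and 0 higher at an unadjusted p under 0.05, and the median log2 difference was -0.44 (-0.49 within software version 3.1.0, -0.44 within 3.0.2 and -0.69 without P301S Cgas+/+ replicate 2). Olfml3, a secreted matrix protein, was below Cgas+/+ in 6 of 6 libraries, at 11.4, 46.1, 39.8, 50.5, 34.5 and 38.4 CPM against 71.2, 80.8, 104, 58.9 and 62.5 CPM (log2 difference -1.09 ± 0.333, edgeR adjusted p = 0.115). P2ry13, a purinergic receptor, had a log2 difference of -1.04 ± 0.295, with 4 of 6 below. Tmem119, a microglial surface protein, was at 47.8 to 230 CPM against 157, 225, 311, 371 and 184 CPM, and Siglech, a sialic acid-binding receptor, at 304 to 948 CPM (median 530) against 880 to 1200 CPM. The ADP receptor P2ry12 (-0.44 ± 0.225), the fractalkine receptor Cx3cr1 (-0.44 ± 0.145), the growth factor receptor Csf1r (-0.38 ± 0.137) and the identity factor Sall1 (-0.22 ± 0.203) had smaller log2 differences.

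**Figure D1:**
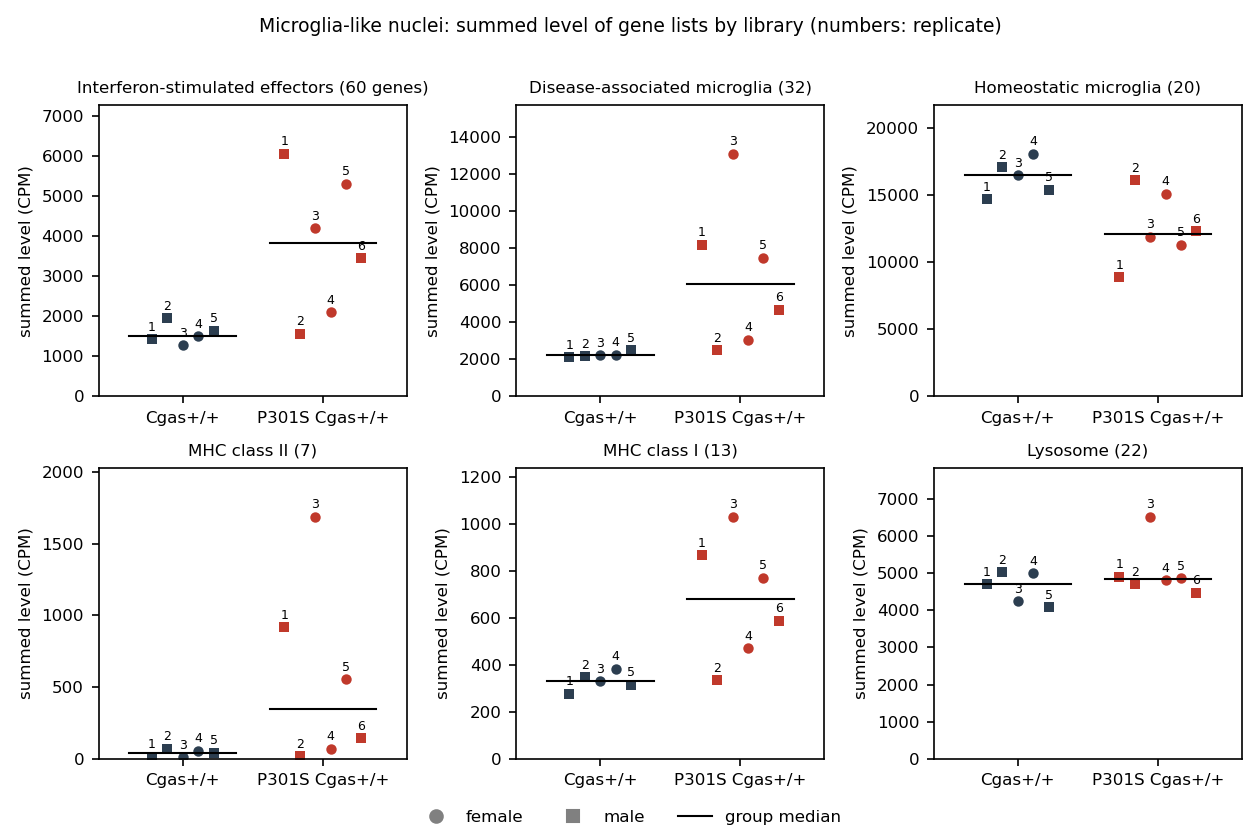
Summed level (CPM) of 6 gene lists in the microglia-like nuclei of each library, with circles for females, squares for males, the replicate number above each point and a line at the group median. P301S Cgas+/+ replicates 1, 3 and 5 had disease-associated sums of 7480 to 13100 CPM, while replicate 2 was at 2490 CPM, beside 2110 to 2480 CPM in Cgas+/+.

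Other microglial lists had few members tested or small differences. Of 22 lysosomal genes 19 were tested, with 6 higher and 1 lower at an unadjusted p under 0.05 and a median of 0.26 (0.17 without P301S Cgas+/+ replicate 3), and the acid lipase Lipa (log2 difference 1.26) and the membrane protein Lamp2 (0.52) were among those higher. Of 16 complement genes 8 were tested, with a median of 0.19 that was 0.09, 0.34 and 0.11 without Cgas+/+ replicate 1, 4 or 5 and 0.04 without P301S Cgas+/+ replicate 6. The anaphylatoxin receptor C3ar1 was at 22.2 to 97.9 CPM (median 60.8) against 14.7, 34.3, 21.7, 35.3 and 26.2 CPM. Only 5 of 17 chemokine and receptor genes were tested, with 3 higher at an unadjusted p under 0.05 and a median of 1.81 that ran from -0.41 to 2.79 over the alternatives. Ccl4, a chemokine that attracts lymphocytes and monocytes, was above Cgas+/+ in 6 of 6 libraries but rested on 77 UMIs against 2 (log2 difference 3.70 ± 0.908, edgeR adjusted p = 0.0864).

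Astrocyte-like nuclei had higher summed levels of interferon-stimulated genes in 5 of the 6 P301S Cgas+/+ libraries and of reactive genes in 6 of 6. The median UMI count per astrocyte-like nucleus was 3282, 3190, 4596.5, 3973.5, 3074 and 3940 in P301S Cgas+/+ and 2664, 3125, 3214, 3001.5 and 2544 in Cgas+/+, so that 4 of 6 libraries were above Cgas+/+ in depth within the class. Of 13025 genes tested, edgeR called 1 (0.00768%), the noncoding gene Gm43049, which is described with the genes of chromosome 3. In all, 1482 had an unadjusted p under 0.05, 6.66% of all genes being higher and 4.72% lower, and DESeq2 called 147 higher and 8 lower. Without P301S Cgas+/+ replicate 2 edgeR called 13 genes higher and 1 lower.

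The 60 interferon-stimulated effectors summed to 1480, 530, 1140, 648, 2150 and 918 CPM in P301S Cgas+/+ astrocyte-like nuclei and to 461, 546, 436, 382 and 486 CPM in Cgas+/+, with 5 of 6 libraries above. The filter on low counts passed 42 effectors over the libraries of the fit and 36 over the 11 libraries alone. Of the 42, 41 were higher and 1 lower at an unadjusted p under 0.05. The median log2 difference was 1.78 (2.08 within software version 3.1.0 and 1.21 within 3.0.2). Samd9l, an antiviral and growth-restricting gene, had a log2 difference of 4.73 ± 1.02 on 150 UMIs against 4. Irf9, a DNA-binding subunit of the interferon-activated complex, was at 12.6 to 28.1 CPM (median 21.2) against 6.12 to 11.1 CPM, and Irgm1, an interferon-induced GTPase, at 8.55 to 34.5 CPM (median 20) against 3.1 to 7.14 CPM, each above in 6 of 6. Xaf1, a pro-apoptotic interferon-induced gene, had a log2 difference of 3.08 ± 0.714 with 5 of 6 above. In class I, 7 of 11 genes tested were higher at an unadjusted p under 0.05, with H2-K1 at 1.6 ± 0.386 and the light chain B2m at 1.44 ± 0.455.

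Reactive astrocyte genes had a larger median log2 difference (2.67) than the effectors (1.78), and whether the lists differed was not tested. The class was made up differently in the 2 groups, a cluster led by Gfap, Aqp4 and Osmr among others holding 30.6% of P301S Cgas+/+ and 13% of Cgas+/+ astrocyte-like nuclei and another 56.9% and 80.9%, and all were summed together. Of 30 members, 29 had a UMI and all of these had a higher mean level in P301S Cgas+/+, and the sum was 2540, 727, 3140, 968, 2020 and 1350 CPM against 567, 638, 509, 428 and 487 CPM, with 6 of 6 libraries above. Of 23 tested, 18 were higher and 0 lower at an unadjusted p under 0.05. Over the 11 libraries alone the filter on low counts passed 20 members. The median log2 difference of the 23 was 2.67. It was 1.70, with 11 higher, when depth over all kept nuclei of a library was a covariate, and depth within the class was not tested. Gfap, the intermediate filament of astrocytes, was at 823, 235, 1140, 344, 521 and 394 CPM against 116, 215, 102, 105 and 97.4 CPM (log2 difference 2.23 ± 0.6, edgeR adjusted p = 0.244). Osmr, the receptor chain for oncostatin M, was at 141, 31.9, 212, 39.7, 166 and 86.6 CPM against 13.5, 10.2, 17.5, 9.14 and 22.2 CPM (log2 difference 3.0 ± 0.795). Stat3, the transcription factor below that receptor, was at 352, 159, 297, 185, 287 and 217 CPM against 117, 105, 128, 118 and 132 CPM (log2 difference 1.03 ± 0.225). All 6 P301S Cgas+/+ libraries exceeded all Cgas+/+ libraries for these 3 genes and for the complement gene C4b (log2 difference 1.24 ± 0.402). Serpina3n, a secreted serine protease inhibitor, was at 32.5, 1.15, 68.5, 9.17, 20.3 and 19.3 CPM against 1.15, 2.38, 0.388, 0.914 and 0.926 CPM, with replicate 2 at the Cgas+/+ level (log2 difference 4.56 ± 1.15, DESeq2 adjusted p = 0.000556), and the filament gene Vim had a log2 difference of 2.96 ± 0.823.

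The 18 genes of astrocyte homeostasis summed to 31300 to 46000 CPM (median 41500) in P301S Cgas+/+ and 45600 to 49700 CPM (median 46400) in Cgas+/+, with 5 of 6 libraries below. Of these, 7 were lower and 1 higher at an unadjusted p under 0.05, with a median log2 difference of -0.31. Slc6a11, a GABA transporter, was at 275, 358, 204, 371, 336 and 347 CPM against 421, 375, 467, 496 and 436 CPM, below in 6 of 6 (log2 difference -0.51 ± 0.18, edgeR adjusted p = 0.29). The glutamate transporter Slc1a2 had a log2 difference of -0.22 ± 0.157 and the gap junction gene Gja1 of -0.32 ± 0.132. Aqp4, the water channel, was the 1 member higher at that threshold, at 244 to 603 CPM (median 348) against 216, 262, 225, 216 and 217 CPM. Microglial markers summed to 107 to 218 CPM in P301S Cgas+/+ and 103 to 109 CPM in Cgas+/+ astrocyte-like nuclei (11 of 12 higher in mean, none at 0). Ependymal markers summed to 10.4 to 91.5 CPM against 7.77 to 19.4 CPM (8 of 9 higher in mean). Their part in the differences was not tested.

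Oligodendrocyte-like nuclei had higher interferon-stimulated and MHC class I gene levels in part of the P301S Cgas+/+ mice, with no gene called, while myelin genes had a median difference near 0. Of 12301 genes tested 0 had an adjusted p under 0.05 (0.0%, edgeR), 838 had an unadjusted p under 0.05, 4.01% of all genes tested being higher, and DESeq2 called 4, all higher. C4b was at 514, 33, 552, 64, 429 and 173 CPM in P301S Cgas+/+ and at 48.3, 73.7, 48.3, 23.6 and 19.7 CPM in Cgas+/+ (log2 difference 2.91 ± 0.878, edgeR adjusted p = 0.721). Serpina3n was at 20.3, 1.59, 50.9, 5.59, 29.3 and 12 CPM against 0, 1.65, 1.35, 0.739 and 2.81 CPM (log2 difference 4.26 ± 1.31, DESeq2 adjusted p = 0.0282). For both genes replicates 1, 3 and 5 were highest and replicate 2 lay within the Cgas+/+ range. Il33, an alarmin cytokine, was at 438 to 630 CPM (median 536) against 405, 463, 386, 450 and 445 CPM, and Cdkn1a, the cell cycle inhibitor p21, had a log2 difference of 3.24 ± 1.07. Over the 18 genes of the disease-associated oligodendrocyte list, of which 17 were tested, 10 were higher and 1 lower at an unadjusted p under 0.05, with a median of 0.52. The largest clusters of the class held 45% and 35.6% of its nuclei in P301S Cgas+/+ and 33.4% and 52.8% in Cgas+/+.

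Interferon-stimulated effectors summed to 527, 264, 455, 295, 897 and 391 CPM in P301S Cgas+/+ oligodendrocyte-like nuclei against 271, 276, 238, 227 and 245 CPM, 5 of 6 above. Of the 60, 21 were tested, and over the 11 libraries alone 15 passed the filter on low counts. Of the 21, 16 were higher and 0 lower at an unadjusted p under 0.05. The median log2 difference of these effectors was 1.12 (1.53 within software version 3.1.0 and 0.54 within 3.0.2). Replicate 5 had the highest level of several of them, with the RNA helicase-like gene Ddx60 at 64.9 CPM and the class I activator Nlrc5 at 50.7 CPM, where the other 5 reached at most 22.4 and 17.9 CPM. Rtp4, an interferon-induced receptor transporter, had a log2 difference of 2.49. The heavy chains H2-D1 (2.96 ± 1.11) and H2-K1 (2.63 ± 0.908, 6 of 6 above) and B2m (2.02 ± 0.931) led the class I genes. Of 25 myelin and lipid synthesis genes, all tested, 1 was higher and 0 lower at an unadjusted p under 0.05, with a median of -0.04, and the myelin genes Mbp and Mog had log2 differences of 0.11 ± 0.113 and -0.12 ± 0.119.

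In oligodendrocyte progenitor-like nuclei Apoe fell, and the summed level of interferon-stimulated genes was above Cgas+/+ in 6 of 6 libraries although edgeR called none of the 19 tested (DESeq2 called 2). Of 8589 genes tested edgeR called 2 (0.0233%), Gm43049 higher and Apoe lower, and DESeq2 called 11 higher and 1 lower. Apoe (chr7:19696109-19699188, minus strand) was at 257, 260, 288, 305, 150 and 204 CPM in P301S Cgas+/+ and at 431, 366, 323, 547 and 307 CPM in Cgas+/+, with no overlap between the groups. It fell by 0.70 ± 0.133 on the log2 scale (edgeR adjusted p = 0.043, DESeq2 adjusted p = 0.00323). Without 1 library the log2 difference of Apoe ranged from -0.79 to -0.57, and the call was lost without Cgas+/+ replicate 1, 2 or 4 or P301S Cgas+/+ replicate 1, 3, 5 or 6. It was also lost within either software version (adjusted p = 0.334 and 0.329), with depth as a covariate (0.928) and with only the 11 libraries in the fit (0.342). Astrocyte markers, which mark the class richest in Apoe, summed to 790 to 990 CPM in P301S Cgas+/+ and 866 to 1030 CPM in Cgas+/+ progenitor-like nuclei, with 4 of 11 higher in mean and none at 0, and their part in the fall was not tested.

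C4b was above Cgas+/+ in 6 of 6 libraries of progenitor-like nuclei, at 160, 21.6, 139, 22.4, 88 and 36.9 CPM against 7.53, 6.73, 4.06, 9.99 and 6.99 CPM (log2 difference 3.48 ± 0.771, edgeR adjusted p = 0.205, DESeq2 adjusted p = 3.44e-05). The 60 effectors summed to 1230, 370, 734, 387, 1130 and 559 CPM against 295, 337, 286, 286 and 309 CPM, 6 of 6 above. Of 19 tested 14 were higher and 0 lower at an unadjusted p under 0.05, where 3.71% of all genes were higher. Their median log2 difference was 1.15 (1.19 within software version 3.1.0 and 1.01 within 3.0.2). Ifih1, the gene of the RNA sensor MDA5, had a log2 difference of 3.93 ± 0.851, Eif2ak2, the RNA-activated kinase PKR, of 1.44 ± 0.374 and Parp11 of 0.84 ± 0.216, all above in 6 of 6. Progenitor cell cycle and differentiation genes had a median of 0.01 over 15 tested of 22, and the progenitor receptor Pdgfra was level (log2 difference 0.01 ± 0.0845), as was Bcas1, a gene of newly formed oligodendrocytes (-0.06 ± 0.153).

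Endothelial-like nuclei were few, and the fit held 5 P301S Cgas+/+ and 4 Cgas+/+ libraries, since P301S Cgas+/+ replicate 3 and Cgas+/+ replicate 4 had under 10 such nuclei. Of 2458 genes tested 0 had an adjusted p under 0.05 (0.0%, edgeR), and DESeq2 called 0. At an unadjusted p under 0.05, 58 were higher and 43 lower. Parp14 was at 117 to 201 CPM in P301S Cgas+/+ and at 0 to 64.4 CPM in Cgas+/+, and Gbp7, a guanylate-binding protein, at 94 to 218 CPM against 21.2 to 87.8 CPM. Each was above in 5 of 5 libraries but on 56 UMIs against 16 and 18 (log2 differences 1.64 ± 0.45 and 1.32 ± 0.431, edgeR adjusted p = 0.992 each). The ubiquitin ligase gene Herc6 was also above in 5 of 5, with a log2 difference of 0.98 ± 0.358. Of 14 effectors tested of 60, 4 were higher and 0 lower at an unadjusted p under 0.05, where 2.36% of all genes were higher, and the median was 0.55 (0.83 without Cgas+/+ replicate 5). Of 30 barrier and activation genes 22 were tested, with a median of 0.18 (0.07 to 0.31 without 1 library), among them the Wnt effector Lef1 (0.56 ± 0.189) and the tight junction gene Cldn5 (0.27 ± 0.469). Mural-like, fibroblast-like, ependymal-like and Cajal-Retzius-like nuclei had 0 called genes by edgeR and by DESeq2, with 108, 70, 104 and 55 genes at an unadjusted p under 0.05.

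**Figure D2:**
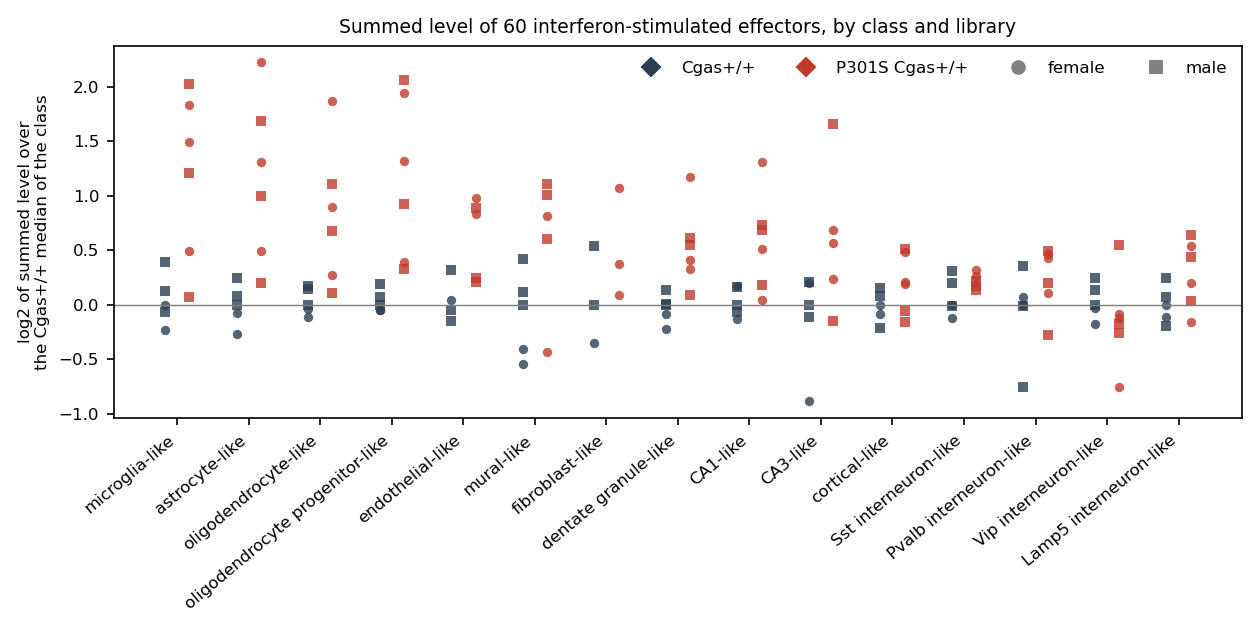
Summed level of the 60 interferon-stimulated effectors in each library, as the log2 ratio to the Cgas+/+ median of the class, with circles for females and squares for males. The glial classes, at the left, have P301S Cgas+/+ libraries spread upward from the Cgas+/+ level, with 5 of 6 above every Cgas+/+ library in microglia-like and astrocyte-like nuclei, whereas in interneuron-like classes the groups overlap.

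T cell-like nuclei were 127 in P301S Cgas+/+ and 7 in Cgas+/+. They were 30, 1, 1, 1, 62 and 32 in P301S Cgas+/+ replicates 1 to 6 and 0, 1, 0, 0 and 6 in Cgas+/+ replicates 1 to 5, so all but 3 of the 127 came from 3 mice. As a share of kept nuclei the difference was 0.208 percentage points (exact two-sided permutation p = 0.104, adjusted p = 0.564). Too few libraries held 10 nuclei for a test of genes, and the values below are pooled UMIs of 126723 in P301S Cgas+/+. The thymocyte and T cell gene Themis had 171 UMIs, the exhaustion and residency factor Tox 133, the integrins Itga4 and Itga1 96 and 62, Runx3 80, the chemokine Ccl5 33, Cd3e 20, the residency receptor Cxcr6 18 and the integrin Itgae 16. Cd8a had 5 UMIs, Cd4 2, the checkpoint receptor Pdcd1 3 and the protease Gzmb 0.

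No class differed in its share of nuclei after adjustment over the 23 classes. Microglia-like nuclei were 7.14%, 4.93%, 3.47%, 6.82%, 8.88% and 5.83% of kept nuclei in P301S Cgas+/+ and 4.17%, 4.06%, 3.76%, 3.69% and 3.84% in Cgas+/+, a difference of 2.28 percentage points (exact two-sided permutation p = 0.026, adjusted p = 0.299). Replicate 3, the 1 library below Cgas+/+, was the one in which unnamed clusters held 50.3% of nuclei. Over named classes only the difference was 3.18 points with p = 0.00433, the smallest that 6 against 5 libraries can give (exact permutation, adjusted p = 0.0996). A single class could thus not pass alone after adjustment over the 23 classes. Excitatory neuron-like nuclei were 16.7% to 39.6% (median 34.1%) in P301S Cgas+/+ and 43.8%, 34.4%, 51.1%, 58.3% and 47.8% in Cgas+/+, a difference of -15.2 points (exact permutation p = 0.0216, adjusted p = 0.299). The difference was -11.7 points over named classes only (exact permutation p = 0.0303, adjusted p = 0.266) and -2.37 points as a share of all neurons (p = 0.303, adjusted p = 0.589). The unnamed shallow cluster that matched excitatory neurons best is not counted in this class. It held a mean of 8.88% of kept nuclei in P301S Cgas+/+ (40.7% in replicate 3) and 1.19% in Cgas+/+. Its part in the difference was not tested. Oligodendrocyte-like nuclei were 17.1% to 30.4% against 8.36% to 28.7% (exact permutation p = 0.147), and astrocyte-like nuclei 5.89% to 16.9% against 11% to 17.1% (p = 0.299). Among hippocampal-like neurons, the shares of the dentate granule class and of the 3 CA classes had adjusted p from 0.663 to 0.931, as did those of the 4 interneuron classes among inhibitory neuron-like nuclei (0.663 each, exact permutation).

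In excitatory neurons the genes called by edgeR were 3 noncoding genes of chromosome 3 and Prn, and no gene of the neuronal function lists was called. Of 16998 genes tested in excitatory neuron-like nuclei edgeR called 4 (0.0235%), all higher, with 385 at an unadjusted p under 0.05, and DESeq2 called 13 higher and 1 lower. Fewer than 4 were called by edgeR with only the 11 libraries, with depth as a covariate or within software version 3.0.2. Gm43049, a noncoding gene, was at 14.4, 20.5, 8.55, 7.81, 8.49 and 5.92 CPM in P301S Cgas+/+ and at 0, 0, 0.0551, 0 and 0.0253 CPM in Cgas+/+ (log2 difference 8.97 ± 0.583, edgeR adjusted p = 8.16e-09). Replicate 2, which was near Cgas+/+ in microglia-like nuclei, had the highest Gm43049 level. The noncoding genes 4930590L14Rik (133 UMIs against 0, at least 47.7-fold higher against a floor of 3 UMIs over the group) and Gm32754 (149 against 6) were the next of the 4. Prn, which overlaps the prion gene Prnp whose promoter drives the transgene, was at 2.76, 1.95, 3.32, 3.03, 3.08 and 2.2 CPM against 0.844, 1.32, 0.964, 1.04 and 0.682 CPM (log2 difference 1.51 ± 0.206, edgeR adjusted p = 0.00147). Reads of Prn and Prnp overlap, so the 2 cannot be told apart, and Prnp itself was too low to be tested, with 41 UMIs against 15. Mapt, the mouse tau gene, had a log2 difference of 0.03 ± 0.0916, and whether reads of the human transgene reach it was not tested.

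Interferon-stimulated effectors were also higher in part of the excitatory neuron-like libraries, though none was called by edgeR. In excitatory neuron-like nuclei they summed to 132 to 224 CPM (median 145) in P301S Cgas+/+ and 119 to 140 CPM (median 131) in Cgas+/+, with 4 of 6 libraries above. The filter on low counts passed 41 effectors over the libraries of the fit and 33 over the 11 libraries alone. Some of the 41 could thus pass through their level in P301S mice. Of the 41, 20 were higher and 0 lower at an unadjusted p under 0.05, where 1.12% of all genes were higher. The median log2 difference was 0.84 (0.90 within software version 3.1.0, 0.54 within 3.0.2 and 0.40 without P301S Cgas+/+ replicate 5). Oasl2, an oligoadenylate synthetase-like gene, was at 2.32, 0.801, 1.84, 0.303, 7.74 and 1.77 CPM against 0.0675, 0.102, 0.0275, 0.0869 and 0.177 CPM (log2 difference 5.10 ± 1.05, edgeR adjusted p = 0.227, DESeq2 adjusted p = 1.41e-06). Ifit1, which binds viral RNA caps, was at 0.592 to 8.49 CPM (median 1.18) against 0.0579 to 0.305 CPM. Both were above in 6 of 6 libraries, and replicate 5 was highest for both. Microglial markers summed to 42.4 to 74.8 CPM against 42.3 to 69.4 CPM in these nuclei, with 9 of 12 higher in mean and none at 0, and their part was not tested.

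The neuronal lists held 28 activity-regulated genes, 37 MEF2 and related neuronal genes, 22 glutamate receptors, 17 GABA receptor and synthesis genes and 25 synapse and adhesion genes. Many of the 37 were named by the study for P301S Cgas-/- against P301S Cgas+/+ mice, not for the tau comparison. Cortical-like nuclei made up 6.17% to 80.4% of excitatory neuron-like nuclei across the libraries. The part of this mixing in the spread of neuronal genes was not tested, and the neuronal lists are not given here within subtypes. All members of these lists were tested in excitatory neuron-like nuclei, and 0 had an unadjusted p under 0.05 or were called by DESeq2 or edgeR. Their median log2 differences were 0.09, -0.12, -0.03, 0.03 and 0.01 in that order. Over the alternatives the first ran from -0.69 to 0.70 and the second from -0.27 to 0.01. Tau kinases and phosphatases (19 of 20 tested) had a median of 0.02 and stress and DNA damage genes (22 of 27 tested) of -0.05 (-0.34 to 0.45 over the alternatives), with 0 and 1 at an unadjusted p under 0.05. Mef2c, a neuronal transcription factor, was at 188 to 530 CPM (median 277) against 242, 297, 433, 360 and 315 CPM (log2 difference -0.17 ± 0.262). The growth factor Bdnf (0.17 ± 0.166), the immediate early genes Fos (-0.27 ± 0.699) and Arc (0.23 ± 0.628), the receptor subunits Gria1 (0.26 ± 0.303) and Grin2b (0.15 ± 0.138), the neuregulin Nrg1 (-0.28 ± 0.252) and the glucocorticoid target Fkbp5 (-0.03 ± 0.207) had log2 differences within about their SE, with edgeR adjusted p of 1.0 each, so differences of this size were not detectable at this spread.

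Among excitatory subtypes, dentate granule-like nuclei had 1 called gene of 12709 (0.00787%), CA1-like 1 of 11835 (0.00845%), cortical-like 4 of 15708 (0.0255%) and CA3-like 0 of 6928, by edgeR. Gm43049 was at 3.73 to 14.9 CPM (median 6.66) in dentate granule-like and 6.89 to 26.1 CPM (median 12.1) in CA1-like nuclei of P301S Cgas+/+ and at 0 in every Cgas+/+ library, at least 76.8-fold and 95.3-fold higher against a floor of 3 UMIs over the group. The 4 genes called in cortical-like nuclei were again Gm43049, 4930590L14Rik, Gm32754 and Prn, the last with a log2 difference of 1.76 ± 0.276 (edgeR adjusted p = 0.00962). Fewer than 4 were called with only the 11 libraries, with depth as a covariate or within either software version. In dentate granule-like nuclei 7 of 16 effectors tested were higher at an unadjusted p under 0.05, where 1.86% of all genes were higher. Ifit1, Ddx60 and Eif2ak2 had log2 differences of 5.33, 3.59 and 3.25 (DESeq2 adjusted p = 0.0114 each). In CA1-like nuclei 7 of 17 were higher, where 0.727% of all genes were higher, with Oasl2 at 0 to 19.8 CPM (median 5.15) against 0 to 0.254 CPM and the class I gene H2-D1 at a log2 difference of 2.47 ± 0.52, above in 6 of 6. In cortical-like nuclei 5 of 27 were higher and 1 lower, where 1.22% of all genes were higher, with a median of 0.33 and Xaf1 at a log2 difference of 1.14 ± 0.368. Over the 11 libraries alone the filter on low counts passed 11 effectors in dentate granule-like, 12 in CA1-like and 22 in cortical-like nuclei.

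Inhibitory neuron-like nuclei had 1 called gene of 13097 (0.00764%, edgeR), Gm43049, at 7.4 to 25.5 CPM (median 8.9) against 0, 0, 0, 0.214 and 0 CPM. Of 15 effectors tested 1 was higher at an unadjusted p under 0.05, where 1.22% of all genes were higher, and their median log2 difference was 0.14 (0.07 to 0.33 without 1 library). H2-D1 was above in 6 of 6 libraries (log2 difference 1.32 ± 0.375, edgeR adjusted p = 1.0). GABA receptor and synthesis genes had a median of 0.02 over 17 tested, with 0 at an unadjusted p under 0.05. In Sst interneuron-like nuclei, fitted without 1 P301S Cgas+/+ library that had under 10 of them, edgeR called 1 of 8808 genes (0.0114%), again Gm43049 (at least 29.2-fold higher), and Mef2c had a log2 difference of -0.51 ± 0.139, with 4 of 5 libraries below (edgeR adjusted p = 1.0). Pvalb interneuron-like and Vip interneuron-like nuclei had 0 called genes by edgeR and DESeq2, with 273 and 248 at an unadjusted p under 0.05.

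Lamp5 interneuron-like nuclei, a class of GABAergic neurons that includes neurogliaform cells, had 2 called genes of 7525 (0.0266%, edgeR), Gm43049 higher and Unc5c lower. Unc5c, a netrin receptor of axon guidance, was at 1990, 2340, 2090, 2620, 2680 and 2940 CPM in P301S Cgas+/+ and at 4720, 5320, 4020, 4470 and 4400 CPM in Cgas+/+, and the groups lay far apart in all 11 libraries. It fell by 0.93 ± 0.155 on the log2 scale (edgeR adjusted p = 0.004, DESeq2 adjusted p = 0.000147). The call held without each library in turn, with log2 differences from -1.05 to -0.83, and was lost with depth as a covariate (adjusted p = 0.053), within software version 3.1.0 (-0.69, adjusted p = 0.418) and within 3.0.2 (-1.28, adjusted p = 0.0558).

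**Figure D3:**
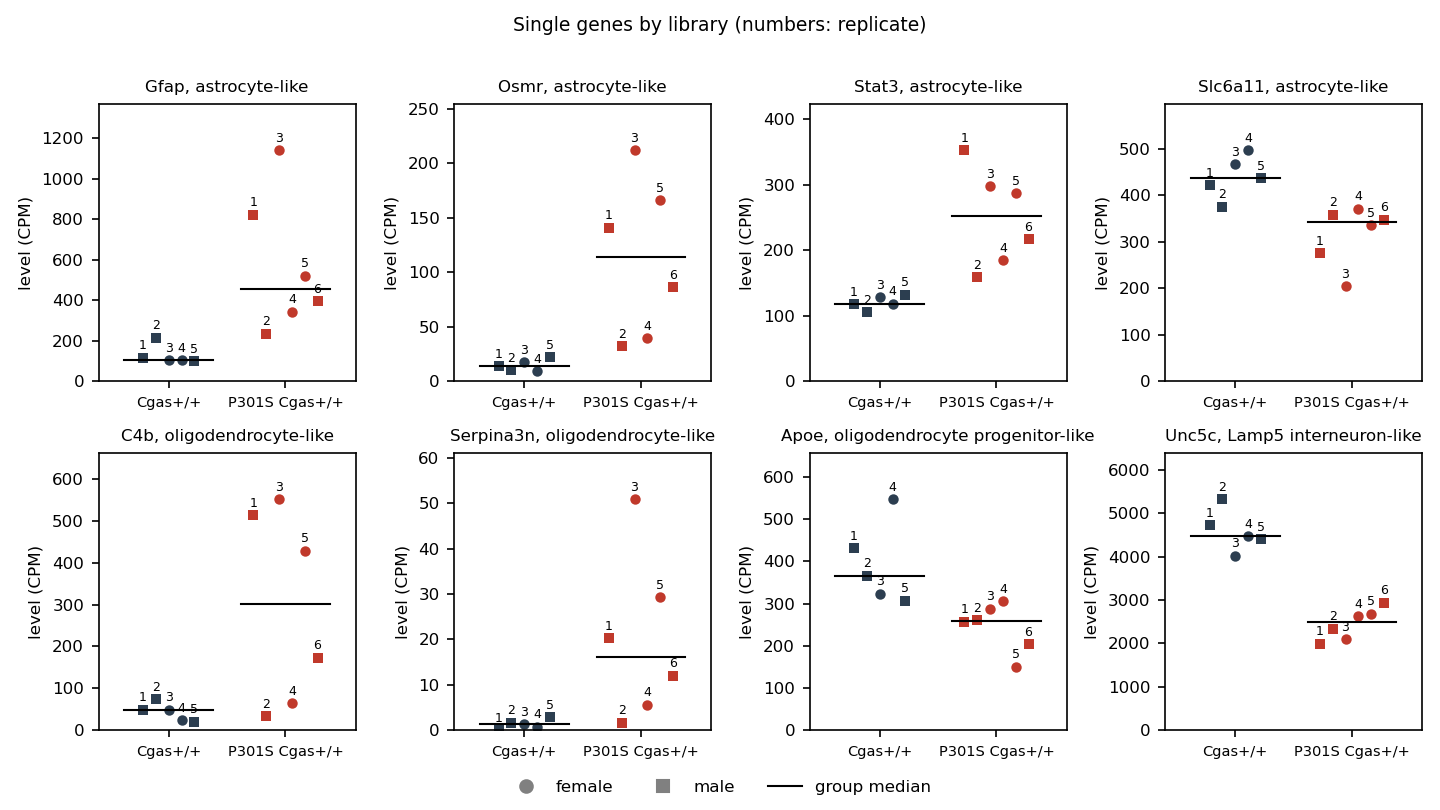
Level (CPM) of single genes in each library, with circles for females, squares for males, the replicate number above each point and a line at the group median. Unc5c in Lamp5 interneuron-like nuclei separates 1990 to 2940 CPM from 4020 to 5320 CPM, whereas C4b and Serpina3n in oligodendrocyte-like nuclei are high in P301S Cgas+/+ replicates 1, 3 and 5.

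Unc5c lies beside the 3 noncoding genes on chromosome 3. In GRCm38, Gm43049 (chr3:140692038-140760704, minus strand), Gm32754 (chr3:140904998-140917459, minus strand) and 4930590L14Rik (chr3:140951876-140953247, plus strand), all annotated as lincRNAs, span 261.2 kb. Unc5c (chr3:141465216-141834924, plus strand), which is protein-coding, starts 512 kb beyond them. Within 2 Mb on each side 20 genes were tested in some class, and these 4 were the ones called in any class. The window also holds Gbp2, Gbp2b, Gbp3, Gbp5 and Gbp7, of which Gbp2, Gbp3 and Gbp7 are among the effectors. In astrocyte-like nuclei each was higher at an unadjusted p under 0.05 (edgeR), with log2 differences from 1.63 (Gbp7) to 6.21 (Gbp2b). The part of their position was not tested. Where Cgas+/+ held 0 UMIs of Gm43049, its log2 difference is set by the fit and is not a measured size. The gene was tested in 10 classes and called in 9, with fitted log2 differences from 6.48 to 9.10. The exception was oligodendrocyte-like nuclei, where the gene had 62 UMIs against 0 (at least 9.12-fold higher, edgeR adjusted p = 0.144). In oligodendrocyte progenitor-like nuclei it was at 14.3, 21.6, 10.7, 11.2, 6.94 and 10.9 CPM against 0 in every Cgas+/+ library, at least 19.4-fold higher (edgeR adjusted p = 0.043). This call was lost with depth as a covariate and without any 1 Cgas+/+ library or P301S Cgas+/+ replicate 1, 3 or 5. In astrocyte-like nuclei it rested on 69 UMIs against 0, at least 17.4-fold higher (edgeR adjusted p = 0.0195). That astrocyte call was lost without Cgas+/+ replicate 1, 2 or 5 or P301S Cgas+/+ replicate 1, with depth as a covariate and within software version 3.0.2, as were the Sst and Lamp5 interneuron-like calls within 3.0.2. With only the 11 libraries the gene did not pass the filter on low counts in these 3 classes, nor within 3.1.0 in astrocyte-like and Lamp5 nuclei. Unc5c, chosen for this account after its values were seen, had a negative log2 difference in 16 of 19 classes, with an unadjusted p under 0.05 in 8 of them. These included Vip interneuron-like (-0.73 ± 0.161, edgeR adjusted p = 0.314), inhibitory neuron-like (-0.60 ± 0.161) and microglia-like nuclei (-0.66 ± 0.271). In astrocyte-like, oligodendrocyte-like and oligodendrocyte progenitor-like nuclei its log2 differences were -0.05, 0.08 and 0.10. These classes are not separate, since inhibitory neuron-like nuclei include those of the 4 interneuron classes and excitatory neuron-like nuclei those of the dentate granule, CA and cortical classes.

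**Figure D4:**
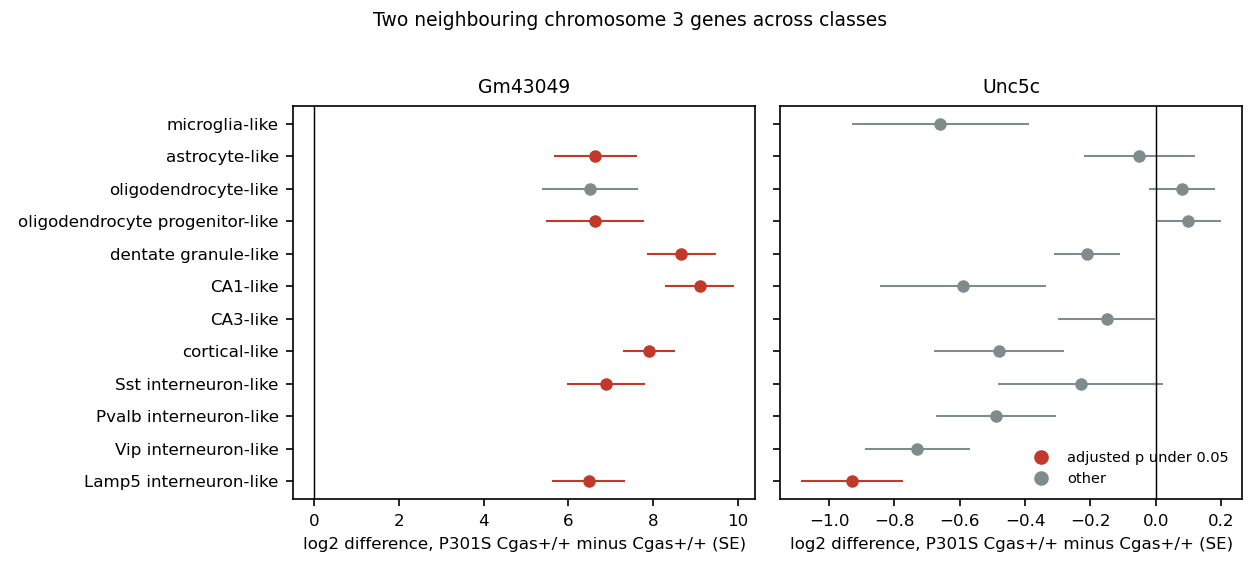
Log2 difference with its SE (edgeR) of Gm43049 and of Unc5c in glial classes and neuronal subtypes in which each was tested, red where the adjusted p was under 0.05. Endothelial-like, mural-like, fibroblast-like, ependymal-like, Cajal-Retzius-like and the pooled excitatory and inhibitory neuron-like nuclei are not drawn. Gm43049 lies between 6.48 and 9.10 in every class shown, and Unc5c is lowest in Lamp5 interneuron-like nuclei, at -0.93. The values of Gm43049 are set by the fit and are not measured sizes in classes where Cgas+/+ held 0 UMIs.

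Whether the tau difference was the same in both sexes was asked with an interaction term over the 11 libraries (3 P301S Cgas+/+ and 2 Cgas+/+ females, 3 and 3 males). All females carry software version 3.1.0, but among males only Cgas+/+ replicate 5 and P301S Cgas+/+ replicate 6 do. The parts of sex and software version in the interaction thus cannot be told apart. In excitatory neuron-like nuclei edgeR called 306 of 16321 genes (1.87%), 255 with a higher and 51 with a lower male than female difference. In oligodendrocyte-like nuclei it called 17 of 10809 (0.157%) and in microglia-like nuclei 4 of 7521 (0.0532%). The excitatory count fell to 1 without Cgas+/+ replicate 3 and to 37 without P301S Cgas+/+ replicate 1, and was 54 to 112 without P301S Cgas+/+ replicate 4, 5 or 6 or Cgas+/+ replicate 1, 2 or 4. The microglial count was 0 without Cgas+/+ replicate 1, 2 or 3 or P301S Cgas+/+ replicate 5 or 6, 1 without Cgas+/+ replicate 4, 9 without Cgas+/+ replicate 5 and 137 without P301S Cgas+/+ replicate 4. The oligodendrocyte count ran from 1 without Cgas+/+ replicate 3 to 205 without P301S Cgas+/+ replicate 4. In astrocyte-like and inhibitory neuron-like nuclei it called 0, with 892 and 1430 genes at an unadjusted p under 0.05 and DESeq2 calls of 26 and 170. Of the 306, 255 were lower in P301S Cgas+/+ females than in Cgas+/+ females and 253 were higher in P301S Cgas+/+ males than in Cgas+/+ males. Of the fixed cortical markers, the 306 included Rorb, Cux2, Fezf2, Foxp2 and Vwc2l but not Tle4, Tshz2, Hs3st4, Etv1 or Il1rapl2, and the directions of these uncalled markers are not given. The tau difference in the share of cortical-like nuclei among excitatory neuron-like nuclei was also higher in males, as for the 255 genes and unlike the 51, with the share at 6.17% to 11.2% in P301S Cgas+/+ females, 57.6% to 76% in Cgas+/+ females, 48.6% to 80.4% in P301S Cgas+/+ males and 20.7% to 43.7% in Cgas+/+ males. Within dentate granule-like, CA1-like and cortical-like nuclei, taken one at a time, edgeR called 0 genes for the interaction, with 863, 424 and 829 at an unadjusted p under 0.05.

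The genes called in microglia-like nuclei were Grm8, a glutamate receptor, Vwc2l and Brinp3, 2 neuronal genes, and Rxfp1, the relaxin receptor. Grm8 was at 22.7 to 33.4 CPM in P301S Cgas+/+ females, 100 to 157 CPM in Cgas+/+ females, 76.9 to 103 CPM in P301S Cgas+/+ males and 49 to 74.6 CPM in Cgas+/+ males (edgeR adjusted p = 0.0147). The order of the 4 groups was that of their median cortical-like shares, and the part of RNA from other nuclei was not tested. No interferon-stimulated, disease-associated or reactive gene was called for the interaction. List medians by sex came from this fit of the 11 libraries and cover fewer genes than the medians given for each class above. The median log2 difference of the effectors was 1.28 in females and 0.81 in males for microglia-like nuclei (28 tested). It was 1.99 and 1.31 for astrocyte-like (36 tested) and 1.34 and 0.60 for oligodendrocyte-like nuclei (15 tested). That of disease-associated microglia genes was 1.75 and 1.17 (15 tested). P301S Cgas+/+ replicate 2, near Cgas+/+ in microglia-like nuclei, is among the 3 males, and all libraries of software version 3.0.2 are of males.

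**Figure D5:**
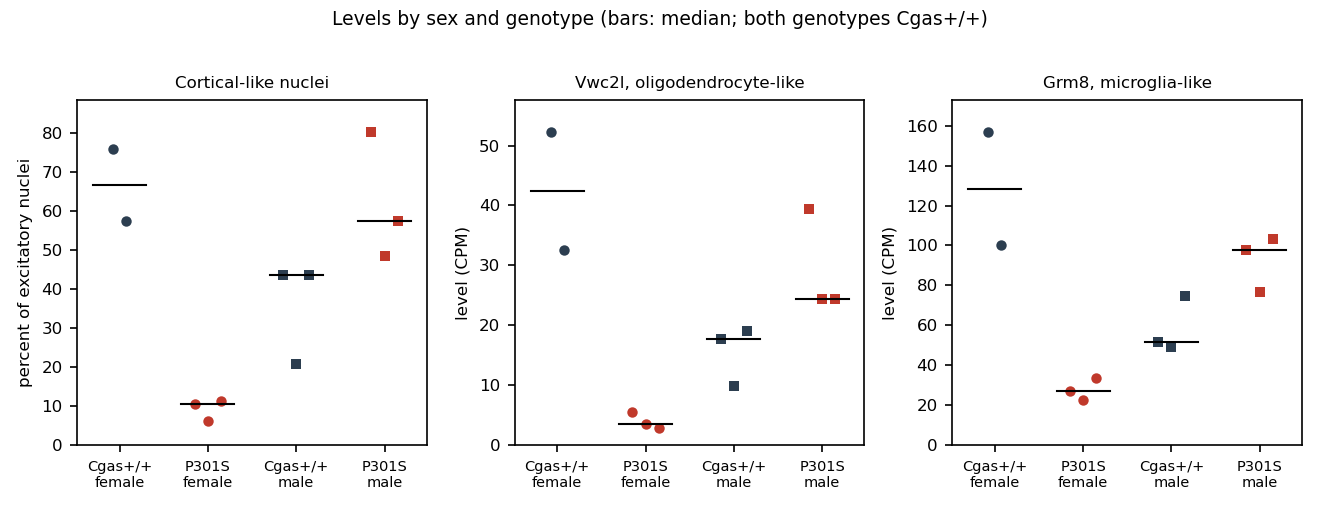
Cortical-like nuclei as a percentage of excitatory neuron-like nuclei, and levels (CPM) of Vwc2l in oligodendrocyte-like and Grm8 in microglia-like nuclei, for each library by sex and genotype, with a line at the median. In all 3 panels P301S Cgas+/+ females are lowest and Cgas+/+ females are high, with the cortical-like share at 6.17% to 11.2% and 57.6% to 76%.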

How the data were processed

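Nuclei of 27 mouse hippocampi were sequenced by the authors with a droplet 3' kit that counts unique molecular identifiers. The deposited matrices hold UMI counts per gene and barcode, made by the authors in Cell Ranger (3.1.0 in the submitters' processing notes, 3.0.2 or 3.1.0 in the file headers) on mm10, pre-mRNA included. Kept barcodes had 200 to 4000 genes and no more than 5% of UMIs from mitochondrial genes, which removed 7174 of 104693 barcodes of the 2 groups for over 4000 genes and 310 for mitochondrial UMIs, and 7777 called doublets were then removed. Nuclei were clustered on 2000 variable genes and 30 components and named from fixed markers (at least 3 detected in 10% of nuclei). Thresholds for naming were set after cluster markers were seen and before any comparison.

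Counts were summed per library and class, leaving out libraries with under 10 nuclei of a class. The test was edgeR 4.0.16's quasi-likelihood fit (R 4.3.3, TMM scaling, filter on low counts, sex as covariate) with Benjamini-Hochberg adjustment at 0.05. It held 23 libraries, the 12 of P301S mice lacking 1 or both copies of Cgas giving part of the spread, and 4 other libraries were not used. The filter also ran over the 23 libraries. List members near 0 in Cgas+/+ could thus be tested because they are high in P301S mice, which favours higher members in the counts and medians. DESeq2 1.42.0, no filter, 11 libraries, doublets kept, depth or software version as covariates and each library left out were alternatives. Depth was the log2 median UMI count over all kept nuclei of a library, not that within a class. Shares were compared by exact permutation (SciPy 1.17.1). Every library came from a separate mouse.

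Genes named were all called genes where 15 or fewer, up to 5 of smallest p per described list, and fixed anchors. The members and lists were chosen with earlier results of these data known, so counts over lists are descriptions. The share of all tested genes whose groups do not overlap is not given. Statements that all libraries of a group lay above or below the other therefore describe levels only. Some named genes are not reported here. The scripts were tested on simulated data. A level of 0 is a count of 0, and floors of 3 counts cover counting error only.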

Additional observations from a re-analysis of the deposited data

Results flagged for a closer look

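Dixon's criterion flagged a single library as far from the rest of its group in 30 of 323 groups of values (9.29%). Of these, 20 were in P301S Cgas+/+. The chance rate of about 1 in 20 holds for independent, normally distributed values. Many levels here were low or uneven and some classes share nuclei, so the 9.29% cannot be read as an excess over that rate. P301S Cgas+/+ replicate 3 was high in microglia-like nuclei for Apoe (2970 CPM), H2-Aa (234), Lipa (129), Ccl4 (31.9) and the sums of the complement (2150) and lysosome (6530) lists, and low for Slc1a2 in astrocyte-like nuclei (6590).

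P301S Cgas+/+ replicate 5 was high for Samd9l in astrocyte-like nuclei (17.8 CPM), for Ddx60 (64.9), Nlrc5 (50.7) and H2-K1 (52.3) in oligodendrocyte-like nuclei, for Oasl2 (7.74) and Ifit1 (8.49) in excitatory neuron-like nuclei and for Ifit1 (12.6) and Ddx60 (15.1) in dentate granule-like nuclei, and low for Mapt in excitatory neuron-like nuclei (407).

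Among other P301S Cgas+/+ libraries, replicate 4 was high for Cldn5 in endothelial-like nuclei (2510 CPM), replicate 1 for Fos (4.9) and the stress and DNA damage list (308) in excitatory neuron-like nuclei, and replicate 2 for Gm43049 in inhibitory neuron-like nuclei (25.5).

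In Cgas+/+, replicate 1 stood apart for Cst7 in microglia-like nuclei (2.45 CPM), Gm32754 in cortical-like nuclei (0.0818) and the interferon effectors in inhibitory neuron-like nuclei (171). Replicate 2 did so for Ciita in microglia-like nuclei (9.8 CPM), Gfap (215) and Aqp4 (262) in astrocyte-like nuclei and tau kinases in excitatory neuron-like nuclei (6900). Replicate 3 did so for Xaf1 in astrocyte-like nuclei (3.1 CPM), replicate 4 for Gm43049 in inhibitory neuron-like nuclei (0.214), and replicate 5 for its share of T cell-like nuclei (0.0577%). For Cst7, Gm32754 and Gm43049 every other Cgas+/+ library was at 0, where the criterion flags any library with a single UMI.

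The tau difference itself differed between male and female libraries for 4 genes in microglia-like, 17 in oligodendrocyte-like and 306 in excitatory neuron-like nuclei (edgeR interaction). Sex and software version overlap in these libraries, and their parts cannot be told apart. The male minus female log2 difference was 2.81 for Grm8, 3.89 for Vwc2l, 2.48 for Brinp3 and 4.71 for Rxfp1 in microglia-like nuclei, and 4.42 for Vwc2l, 4.74 for Rxfp1 and -1.05 for Mtus1 in oligodendrocyte-like nuclei. The median share of cortical-like nuclei among excitatory neuron-like nuclei was 10.5% in P301S Cgas+/+ females, 66.8% in Cgas+/+ females, 57.6% in P301S Cgas+/+ males and 43.5% in Cgas+/+ males. Its tau difference was thus higher in males, as for Grm8, Vwc2l, Brinp3 and Rxfp1 and unlike Mtus1, and its part was not tested.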

How the results depend on the processing

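No paired analysis was possible because the replicate numbers follow accession order and do not pair mice across groups. No share passed the adjusted threshold under any of 418 alternatives, and no called value changed sign. Uncalled differences in share did change sign under some alternatives, by the library left out or the denominator, in choroid plexus-like, CA1-like, CA2-like, CA3-like and Cajal-Retzius-like nuclei among others, but not in microglia-like or excitatory nuclei. Among uncalled list medians the sign changed under some alternatives, for chemokines and receptors in microglia (-0.41 to 2.79) and for activity-regulated genes in excitatory neuron (-0.69 to 0.70) and neuropeptides in inhibitory neuron (-0.35 to 0.34), among others. Of 360 alternative counts of called genes 279 were within 1.5 times the main count. DESeq2 called 280 genes in microglia-like, 155 in astrocyte-like, 4 in oligodendrocyte-like, 12 in progenitor-like, 14 in excitatory, 9 in dentate granule-like and 2 in CA1-like nuclei. Without a filter edgeR called 824 in microglia-like, 1 in oligodendrocyte-like, 67 in progenitor-like, 1 in mural-like, 2 in fibroblast-like, 1 in Cajal-Retzius-like, 2 in CA1-like, 13 in CA3-like, 4 in Sst, 9 in Pvalb and 3 in Vip interneuron-like nuclei. With 11 libraries it called 0 in astrocyte-like, 10 in progenitor-like, 2 in excitatory, 2 in cortical-like, 0 in Sst and 1 in Lamp5 nuclei. With doublets kept it called 1 each in oligodendrocyte-like, progenitor-like and Pvalb nuclei. With depth as covariate it called 0 in astrocyte-like, 0 in progenitor-like, 2 in excitatory, 1 in cortical-like and 1 in Lamp5 nuclei. With software version as covariate, or an unnamed shallow cluster that carries oligodendrocyte markers (0.932% to 3.86% of P301S Cgas+/+ nuclei) counted as oligodendrocyte, it called 1 in oligodendrocyte-like nuclei. Within version 3.1.0, an alternative chosen after seeing the data like that within 3.0.2 and the unnamed shallow cluster, it called 0 in astrocyte-like, 6 in progenitor-like, 2 in fibroblast-like, 12 in inhibitory, 8 in dentate granule-like, 1 in cortical-like, 3 in Sst, 1 in Pvalb, 2 in Vip and 0 in Lamp5 nuclei. Within 3.0.2 it called 0 in astrocyte-like, 1 in endothelial-like, 1 in excitatory, 2 in inhibitory, 5 in dentate granule-like, 1 in cortical-like, 0 in Sst, 6 in Vip and 0 in Lamp5 nuclei. Without 1 library the counts ran from 0 to 415 in microglia-like (the highest without P301S Cgas+/+ replicate 2), 0 to 14 in astrocyte-like, 0 to 1 in oligodendrocyte-like, 0 to 15 in progenitor-like, 0 to 1 in ependymal-like, Cajal-Retzius-like, CA3-like, Pvalb and Vip, 4 to 5 in excitatory, 1 to 10 in dentate granule-like and 1 to 4 in cortical-like nuclei. The Gm43049 call in astrocyte-like nuclei was lost without Cgas+/+ replicate 1, 2 or 5 or P301S Cgas+/+ replicate 1. For the interaction with sex, DESeq2 called 38 genes in microglia-like, 26 in astrocyte-like, 118 in oligodendrocyte-like, 1305 in excitatory and 170 in inhibitory nuclei, and edgeR without a filter 168, 374 and 553 in the first 3 and 784 in inhibitory nuclei. Within dentate granule-like, CA1-like and cortical-like nuclei the count was 0, and without 1 library it ran from 0 to 137 in microglia-like, 0 to 8 in astrocyte-like, 1 to 205 in oligodendrocyte-like, 1 to 406 in excitatory (1 without Cgas+/+ replicate 3) and 0 to 44 in inhibitory nuclei. The median log2 difference of disease-associated microglia genes was 1.61 with 11 libraries, 1.18 with depth and 1.84 within 3.0.2. That of reactive astrocyte genes was 1.70 with depth, 3.34 within 3.1.0 and 1.69 within 3.0.2, and that of astrocyte homeostasis -0.10 within 3.0.2. In oligodendrocyte-like nuclei the effectors' median was 1.88 without a filter and 0.54 within 3.0.2, and that of disease-associated oligodendrocyte genes 0.90 with 11 libraries and 0.91 within 3.1.0. In excitatory nuclei the effectors' median was 0.45 with 11 libraries, 0.58 with depth and 0.54 within 3.0.2. Without 1 library the medians of effectors ran from 1.16 to 1.63 in microglia-like, 1.36 to 2.07 in astrocyte-like, 0.75 to 1.29 in oligodendrocyte-like, 0.84 to 1.35 in progenitor-like and 0.40 to 0.99 in excitatory nuclei. Those of disease-associated microglia genes ran from 1.68 to 2.81, homeostatic microglia -0.69 to -0.36, MHC class II 3.70 to 4.71, reactive astrocyte 2.37 to 3.04, astrocyte homeostasis -0.45 to -0.24 and disease-associated oligodendrocyte genes 0.35 to 0.77. The cause of these differences was not tested.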

Other observations

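Outside the gene lists, the genes of smallest p in microglia-like nuclei were named after their values were seen, and none passed edgeR's threshold. Cd83, a surface protein of activated antigen-presenting cells, was at 383, 41, 205, 106, 225 and 115 CPM in P301S Cgas+/+ and at 12.3, 29.4, 14.5, 32.4 and 22.2 CPM in Cgas+/+, above in 6 of 6 libraries, replicate 2 included (log2 difference 3.14 ± 0.577, edgeR adjusted p = 0.0601, DESeq2 adjusted p = 7.5e-07). Fmnl2, a formin that builds actin filaments, was at 399 to 914 CPM (median 751) against 290, 279, 297, 274 and 323 CPM, also above in 6 of 6. Acer3, an alkaline ceramidase, had a log2 difference of 0.84 ± 0.165 and Arhgef11, a guanine nucleotide exchange factor, of 0.57 ± 0.116, both above in 6 of 6. Bcl2l1, the survival gene of BCL-XL, had a log2 difference of 0.97 ± 0.181, with 5 of 6 above. Replicate 2 lay above the Cgas+/+ range for Cd83, Fmnl2, Acer3 and Arhgef11 and within it for Bcl2l1 (285 CPM against 169 to 296 CPM). A choice by smallest p favours genes that are high in all P301S Cgas+/+ libraries. These levels are therefore no measure of how replicate 2 differs from its interferon-stimulated genes.

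In astrocyte-like nuclei Gbp2b, an interferon-induced guanylate-binding protein, was at 9.45, 0.693, 11.3, 4.28, 14.6 and 3.1 CPM against 0, 0, 0, 0 and 0.231 CPM (log2 difference 6.21 ± 1.19, edgeR adjusted p = 0.224). Gbp2b lies in the chromosome 3 window described with Gm43049. Tifa, an adaptor of NF-κB signalling, was at 31.2 to 72.4 CPM against 13.6 to 30.5 CPM, and Zfp36, which destabilises inflammatory mRNAs, at 2.38 to 7.66 CPM against 0.388 to 1.15 CPM, each above in 6 of 6. Wdr63 and Kif27, genes of motile cilia, had log2 differences of 4.53 ± 1.03 and 2.11 ± 0.511, beside ependymal markers of 10.4 to 91.5 CPM against 7.77 to 19.4 CPM in the same nuclei, whose part was not tested.

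Mitochondrially encoded genes were 0.0393% to 0.0678% of the UMIs of microglia-like nuclei in P301S Cgas+/+ and 0.0517% to 0.122% in Cgas+/+, with 5 of 6 libraries below, and 0.0411% to 0.111% against 0.0278% to 0.0772% in astrocyte-like nuclei.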
